A study of Homo sapiens with 10 samples.

Results

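Cyclin-dependent kinase inhibitors and the GADD45 proteins are brakes that cells apply to division under stress. They were studied as a set of 10 named genes, and each gene was taken from the row of the array table annotated to its symbol and to no other. Of the 10, 9 had such a row, and each had a single row. CDKN2C, which encodes the INK4 protein p18, had no row with only its symbol and has no value here. The 9 genes are part of 14232 genes with a row of their own among 22011 rows.

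The samples were total RNA of SH-SY5Y, an established human neuroblastoma line used as a model of catecholaminergic neurons. The group labelled ctrl held 5 arrays of untreated cells (numbered 7, 11, 13, 17 and 19 in the titles), and the group labelled Paraquat held 5 arrays of cells exposed to paraquat, a redox-cycling herbicide that generates superoxide (8, 12, 14, 18 and 20). All samples came from the same line and had no other stated difference. The sources used here do not give the dose or the length of exposure. The comparison asks how each gene's level differed between treated and untreated cells. Nothing in the labels states that the 5 arrays of a group are separate cultures, so p-values reflect array-to-array spread that may be technical only.

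The CIP/KIP proteins, CDKN1A (p21), CDKN1B (p27) and CDKN1C (p57), bind many cyclin and kinase pairs. CDKN1A carries out cell cycle arrest after DNA damage. The INK4 proteins, CDKN2A (p16), CDKN2B (p15), CDKN2C (p18) and CDKN2D (p19), bind only the kinases CDK4 and CDK6 and keep cyclin D from activating them. CDKN2A also encodes the ARF protein from an alternative reading frame, and a single row cannot separate the 2 products. The GADD45 proteins bind CDK1, PCNA and the kinase MAP3K4, and so link stress to cell cycle arrest and to the p38 and JNK kinases. GADD45A is induced by growth arrest and DNA damage, GADD45B is known as a response gene of NF-kB and of transforming growth factor beta, and GADD45G was described as a cytokine response gene.

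The promoters of the genes that rose are shown because these genes passed the test in the same direction. RefSeq windows of 300 bases (build GRCh38.p14, 250 bases before to 50 after the start site) were in the table for 4 of the 5 genes that rose. The table lists none for GADD45A. They are printed 5′ to 3′ on the gene's strand, with capitals for every match to 9 motifs on either strand.
CDKN1A, chr6:36678464-36678763, plus strand: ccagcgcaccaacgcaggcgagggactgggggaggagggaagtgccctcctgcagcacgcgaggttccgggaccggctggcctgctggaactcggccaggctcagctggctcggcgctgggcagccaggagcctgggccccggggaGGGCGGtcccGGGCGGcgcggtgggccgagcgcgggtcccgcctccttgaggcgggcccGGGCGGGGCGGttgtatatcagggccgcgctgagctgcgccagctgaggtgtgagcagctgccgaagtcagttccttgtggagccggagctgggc
CDKN2B, chr9:22009256-22009555, minus strand: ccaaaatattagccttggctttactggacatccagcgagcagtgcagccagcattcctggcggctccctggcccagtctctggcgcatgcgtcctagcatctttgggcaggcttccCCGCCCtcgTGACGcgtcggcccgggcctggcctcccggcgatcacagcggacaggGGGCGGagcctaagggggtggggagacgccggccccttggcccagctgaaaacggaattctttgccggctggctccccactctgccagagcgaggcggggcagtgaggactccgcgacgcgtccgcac
GADD45B, chr19:2475877-2476176, plus strand: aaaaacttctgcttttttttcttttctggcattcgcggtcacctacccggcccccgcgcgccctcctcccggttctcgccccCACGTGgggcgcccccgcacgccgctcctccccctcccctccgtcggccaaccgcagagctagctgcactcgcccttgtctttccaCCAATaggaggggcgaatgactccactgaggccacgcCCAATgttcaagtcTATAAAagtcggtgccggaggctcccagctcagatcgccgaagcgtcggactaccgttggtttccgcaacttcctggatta
GADD45G, chr9:89604762-89605061, plus strand: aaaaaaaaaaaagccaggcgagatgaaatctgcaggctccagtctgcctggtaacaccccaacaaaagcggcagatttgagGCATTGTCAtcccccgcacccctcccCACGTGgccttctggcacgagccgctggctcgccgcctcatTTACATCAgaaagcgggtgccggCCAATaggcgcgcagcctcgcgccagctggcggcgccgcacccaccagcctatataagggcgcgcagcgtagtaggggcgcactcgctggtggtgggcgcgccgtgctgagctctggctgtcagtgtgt

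The motifs were the TATA box (TATAAA), the CCAAT box (CCAAT), the GC box (GGGCGG), the core of the cAMP response element (TGACG), the AP-1 site (TGANTCA), the combined ATF4 and CEBP element (TGATGNAA), the core bound by NRF2 (TGACNNNGC), the E-box (CACGTG) and the NF-kB decamer. A base can belong to several matches, since TGACG can lie within TGACNNNGC. Positions count the first transcribed base as 1 and the base before it as -1. The GADD45B window held a TATA box at -31, CCAAT boxes at -82 and -45 and an E-box at -168. The GADD45G window held a CCAAT box at -79, an E-box at -143, an NRF2 core at -169 and an ATF4 and CEBP element at -102. A CCAAT box and an E-box were in both GADD45 windows and in neither the CDKN1A nor the CDKN2B window, and no motif was in all 4. Of all 35116 windows, 34.6% held a CCAAT box and 7.26% an E-box. GC boxes were in the CDKN1A window, at -104, -94, -45 and -40, and in the CDKN2B window, at -134 and -78, and 45% of all windows held one. CDKN2B also had a TGACG core at -125, found in 24.6% of windows. TATA boxes were in 11.5% of windows, NRF2 cores in 13.3% and ATF4 and CEBP elements in 3.62%. The AP-1 site and the NF-kB decamer were in 7.71% and 5.91% of all windows, and these letters were not in any of the 4 windows. Windows of members that did not pass held some of the same letters, with CCAAT boxes in CDKN1B and CDKN2D, GC boxes in CDKN1B, CDKN2A and CDKN2D, and an NRF2 core and a TGACG core in CDKN1B. These are matches of letters, and no binding was measured.

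Levels below are the deposited log2 expression values, and errors of means are standard deviations over 5 arrays. A change is the mean of the Paraquat arrays minus the mean of the ctrl arrays, with its moderated standard error from limma, and its p-value was adjusted over all 22011 rows. A gene was called raised or lowered at an adjusted p under 0.05. Values of different genes on an array are not comparable as amounts, so no gene is called more abundant than another. Differences between genes are read only by their shift between groups, and ctrl means of different genes only as the brightness of rows. In bulk RNA, more cells expressing a gene and more RNA per cell cannot be told apart.

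Array medians lay between 6.78 and 6.93. The residual SD was 0.358 in ctrl 11 and 0.206 to 0.291 in the other 9 arrays, and ctrl 11 and Paraquat 12 had the lowest scores on the second principal component (-49.0 and -27.9). No call of an inhibitor or GADD45 gene changed without these 2 arrays. Of 7 measured markers of sympathetic neuroblasts, 6 fell and 0 rose, and the list's mean log2 level was 9.46 to 9.70 in ctrl and 8.63 to 8.91 in Paraquat arrays. Among 4 leukocyte markers CD68 (ctrl mean 7.74, change 1.33) and CD14 (ctrl mean 5.21, change 0.64) rose. The list mean was 4.48 to 4.74 in ctrl and 5.02 to 5.21 in Paraquat arrays. PTPRC and CD3E did not pass, with changes of 0.06 and 0.03. Their ctrl means were 2.67 and 2.84, at the dim end of the table, where RMA compresses differences. Over all rows 8.51% rose and 11.5% fell. None of 3 glial and 5 stromal markers passed, with list means of 4.56 to 5.09 and 8.01 to 8.25 in ctrl and 4.61 to 5.26 and 7.52 to 7.81 in Paraquat arrays. The part of these differences in the changes of the inhibitor and GADD45 genes was not tested.

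After paraquat 5 of the 9 genes rose and 0 fell, and 4 did not pass the test. Of all rows, 20.0% passed in either direction, 8.51% upward and 11.5% downward. The genes that rose were all 3 GADD45 genes, CDKN1A of the CIP/KIP genes and CDKN2B of the INK4 genes. The median change of the 9 genes was 0.61, against 0.00 over all rows. Paraquat arrays lay above every ctrl array for the same 5 genes, as they did in 7.01% of all rows, and they lay below every ctrl array for 0 of the 9 genes and 9.22% of all rows. The count of 0 lowered genes is from limma without a block, and 0 genes of the 9 had an unadjusted p under 0.05 downward, with CDKN1B nearest at 0.0540. With a block of neighbouring title numbers, added after seeing the data, CDKN1B passed as lowered (limma adjusted p = 0.0409).

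**Figure D1:**
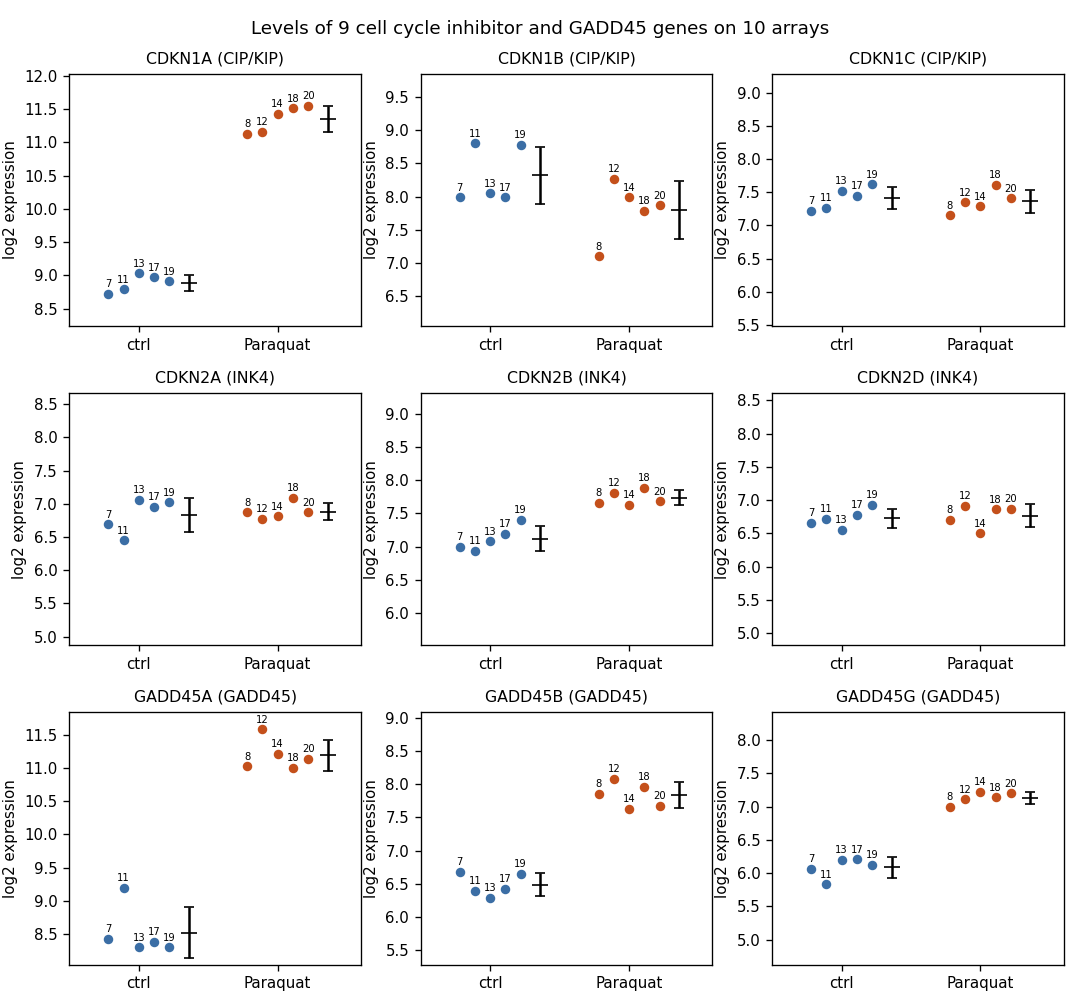
Log2 expression (vertical axis, each panel spanning the same number of log2 units) of 9 genes in 5 ctrl arrays (blue) and 5 Paraquat arrays (orange), with the array number at each point and the group mean and standard deviation in black. The groups are apart for CDKN1A, CDKN2B, GADD45A, GADD45B and GADD45G and overlap for the other 4.

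CDKN1A, the broad inhibitor p21 (transcript cluster 2905169), rose 5.54-fold. Its log2 level was 8.72, 8.79, 9.03, 8.97 and 8.91 in ctrl arrays 7, 11, 13, 17 and 19, and 11.13, 11.16, 11.43, 11.51 and 11.55 in Paraquat arrays 8, 12, 14, 18 and 20. Each group stayed within a narrow band, and the lowest Paraquat array lay far above the highest ctrl array. The means were 8.89 ± 0.13 and 11.36 ± 0.20, and the change was 2.47 ± 0.11 (adjusted p = 1.98e-07). Its increase ranked 36th among 14232 genes, counted from the largest.

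CDKN1B, the inhibitor p27 that restrains quiescent cells (transcript cluster 3405440), did not pass. Its log2 level was 7.99, 8.80, 8.05, 7.99 and 8.78 in ctrl arrays 7, 11, 13, 17 and 19, and 7.10, 8.27, 7.99, 7.78 and 7.87 in Paraquat arrays 8, 12, 14, 18 and 20. Ctrl arrays 11 and 19 were high and Paraquat array 8 was low, and the groups overlapped. The change was -0.52 ± 0.24 with a 95% confidence interval from -1.05 to 0.01 (adjusted p = 0.172), and without Paraquat 8 it was -0.34. This interval is the widest of the 9 genes.

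CDKN1C, the imprinted inhibitor p57 (transcript cluster 3359432), had log2 levels from 7.22 to 7.62 in ctrl arrays and from 7.15 to 7.61 in Paraquat arrays, with medians of 7.45 and 7.35. The ranges overlapped almost completely. The change was -0.05 ± 0.11, with an interval from -0.29 to 0.19 (adjusted p = 0.825).

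Of the INK4 genes only CDKN2B passed the test. CDKN2B, the inhibitor p15 known as a target of transforming growth factor beta (transcript cluster 3201488), had log2 levels of 7.00, 6.94, 7.08, 7.19 and 7.40 in ctrl arrays 7, 11, 13, 17 and 19, and 7.66, 7.81, 7.63, 7.89 and 7.68 in Paraquat arrays 8, 12, 14, 18 and 20. The groups did not overlap, although ctrl 19 came near the lowest Paraquat array. The gene rose 1.53-fold, from 7.12 ± 0.18 to 7.74 ± 0.11, a change of 0.61 ± 0.10 (adjusted p = 0.00161).

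CDKN2A, which encodes p16 and ARF (transcript cluster 3201437), had log2 levels of 6.69, 6.45, 7.06, 6.95 and 7.02 in ctrl arrays 7, 11, 13, 17 and 19, and 6.87, 6.77, 6.81, 7.09 and 6.87 in Paraquat arrays 8, 12, 14, 18 and 20. All Paraquat values but that of array 18 lay inside the ctrl range, in which array 11 was lowest. The change was 0.05 ± 0.13, with an interval from -0.23 to 0.33 (adjusted p = 0.852). It took the other sign, -0.05, without ctrl 11. CDKN2D, the inhibitor p19 (transcript cluster 3850445), had log2 levels from 6.55 to 6.93 in ctrl arrays and from 6.50 to 6.91 in Paraquat arrays. Its ranges nearly coincided, and the change was 0.04 ± 0.11, with an interval from -0.19 to 0.27 (adjusted p = 0.849).

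CDKN2A and CDKN2B are neighbours at one locus with the antisense transcripts CDKN2A-AS1 and CDKN2B-AS1, so these rows were read together, outside the naming rule. CDKN2A-AS1 (transcript cluster 3164999) had a level of 5.70 ± 0.21 in ctrl and 5.92 ± 0.38 in Paraquat arrays, a change of 0.22 ± 0.18 (adjusted p = 0.464). A row assigned to both CDKN2B-AS1 and MTAP, the next gene of the locus, had 7.65 ± 0.15 and 7.33 ± 0.17, a change of -0.32 ± 0.11 that did not pass (adjusted p = 0.0616). Of these rows of the locus, CDKN2B passed. The sources used here do not state whether strands of overlapping transcripts were kept apart.

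GADD45A (transcript cluster 2341083) had the largest change of the 9 genes, a 6.37-fold increase. Its log2 level was 8.43, 9.19, 8.30, 8.38 and 8.30 in ctrl arrays 7, 11, 13, 17 and 19, and 11.02, 11.58, 11.21, 11.00 and 11.14 in Paraquat arrays 8, 12, 14, 18 and 20. Ctrl 11 stood above the other ctrl arrays and Paraquat 12 above the other Paraquat arrays, and the groups were far apart. The means were 8.52 ± 0.38 and 11.19 ± 0.23, and the change was 2.67 ± 0.18 (adjusted p = 3.44e-06). Without ctrl 11 the change was 2.84. The increase ranked 27th among the 14232 genes.

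GADD45B (transcript cluster 3816509) rose 2.55-fold. Its log2 level was 6.68, 6.39, 6.29, 6.42 and 6.65 in ctrl arrays 7, 11, 13, 17 and 19, and 7.85, 8.08, 7.63, 7.96 and 7.67 in Paraquat arrays 8, 12, 14, 18 and 20. The groups did not overlap, and ctrl 11, high for GADD45A, was within the range of the other ctrl arrays here. The change was 1.35 ± 0.12 (adjusted p = 1.67e-05), and it ranked 162nd.

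GADD45G (transcript cluster 3178679) rose 2.06-fold. Its log2 level was 6.07, 5.83, 6.20, 6.21 and 6.13 in ctrl arrays 7, 11, 13, 17 and 19, and 7.00, 7.11, 7.22, 7.14 and 7.20 in Paraquat arrays 8, 12, 14, 18 and 20. The Paraquat arrays were tightly grouped and all above the ctrl arrays, of which array 11 was lowest. The change was 1.05 ± 0.09 (adjusted p = 2.05e-05), and it ranked 268th.

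**Figure D2:**
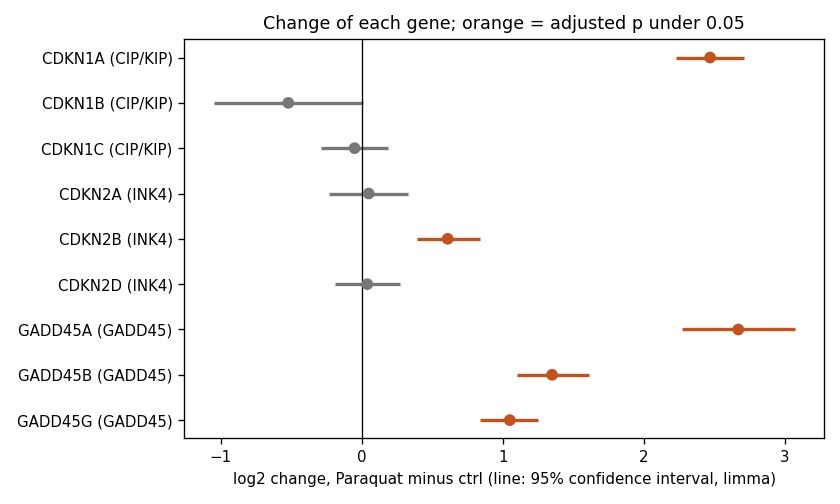
Log2 change (horizontal axis, Paraquat minus ctrl) of each gene with its 95% confidence interval from limma, 5 arrays a group. Orange marks genes with an adjusted p under 0.05. GADD45A (2.67) and CDKN1A (2.47) lie apart to the right, followed by GADD45B (1.35), GADD45G (1.05) and CDKN2B (0.61).

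Whether members of a family changed by different amounts was tested on the difference of their log2 values within each array. An exact two-sided permutation test of 5 against 5 arrays was used, with p-values adjusted over 9 pairs. The smallest p it can give is 0.00794. Of the 9 pairs, 6 reached it, with an adjusted p of 0.0119.

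Within the CIP/KIP genes the change of CDKN1A exceeded that of CDKN1B by 2.99 and that of CDKN1C by 2.52 (exact permutation adjusted p = 0.0119 for each pair). The CDKN1A minus CDKN1C difference went from 1.47 ± 0.10 in ctrl to 3.99 ± 0.14 in Paraquat arrays, a smaller spread than that of the pair with CDKN1B. CDKN1B and CDKN1C were not resolved from each other (difference of changes -0.47, exact permutation adjusted p = 0.134).

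Within the INK4 genes the change of CDKN2B exceeded that of CDKN2D by 0.57, and that of CDKN2A was below that of CDKN2B, with a difference of -0.57 (exact permutation adjusted p = 0.0119 for each pair). CDKN2A and CDKN2D differed by 0.01 (exact permutation adjusted p = 0.968). Within the GADD45 genes the change of GADD45A exceeded that of GADD45B by 1.32 and that of GADD45G by 1.63 (exact permutation adjusted p = 0.0119 for each pair). GADD45B and GADD45G had a difference of 0.31 that did not pass (exact permutation adjusted p = 0.102). The measured changes of family members were thus unequal in each of the 3 families. The test cannot tell unequal changes of RNA from unequal compression of rows at different levels. The GADD45A row had a ctrl mean of 8.52, and those of GADD45B and GADD45G had 6.49 and 6.09.

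**Figure D3:**
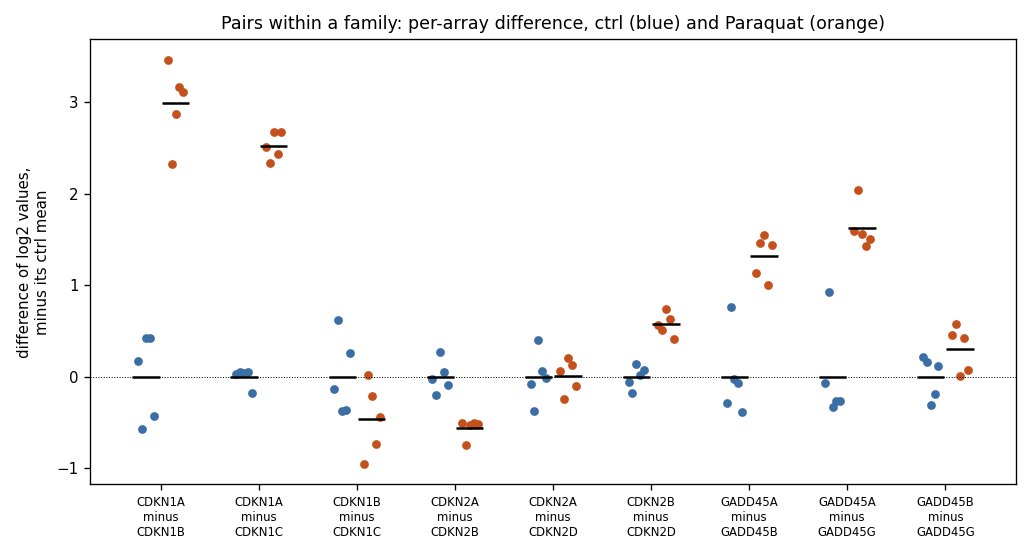
Difference of log2 values of 2 members of a family in each array, minus the mean of that difference over ctrl arrays (vertical axis), for 9 pairs in ctrl (blue) and Paraquat (orange) arrays, with bars at group means. The orange bars lie at 2.99 and 2.52 for the pairs with CDKN1A, at 1.32 and 1.63 for those with GADD45A, and near 0 (0.01) for CDKN2A minus CDKN2D.

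The genes with the profile most like that of a member were those with the smallest root mean square difference over 10 arrays, after subtraction of each gene's ctrl mean, for the 3 members with the largest changes. Nearest to GADD45A were PRNP, the prion protein gene (difference 0.18 on the log2 scale), PLK2, a polo-like kinase (0.21), and DDIT4, an inhibitor of mTOR (0.23). Nearest to CDKN1A were SESN2, a sestrin (0.13), NR4A1, an early response nuclear receptor (0.14), and PPP1R15A, also known as GADD34, which directs dephosphorylation of eIF2 alpha (0.16). For GADD45B, IQCN (0.21) had rank 2 and F2RL2, a thrombin receptor family gene (0.21), rank 3 in nearness. These measures are dominated by the size of the change between groups. F2RL2 had a ctrl mean of 3.23, also at the dim end of the table.

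The genes around the inhibitors were taken from 6 lists. Beside each count, 8.51% of all rows rose and 11.5% fell, and the median change over all rows was 0.00.

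Among the partners that the inhibitors bind, more genes fell than rose. Of 14 measured genes for kinases and cyclins, 1 rose and 7 fell, with a median change of -0.31. CCNB2 fell by 1.54, CCNA2 by 1.31 and CCNB1 by 1.30, all cyclins of the S, G2 or M phases, and CDK3 rose by 0.64. CDK2 (-0.59), CCNE1 (-0.75), CCNE2 (-1.15) and CDK1 (-0.92) also fell. The CDK1 call ended without ctrl 13, ctrl 17, Paraquat 8, Paraquat 18 or Paraquat 20 (limma adjusted p up to 0.0785), which left 6 of the 14 lowered. The kinase CDK6, which INK4 proteins bind, and the D cyclins that activate it did not pass. The changes were 0.08 for CDK6, 0.28 for CCND1 (limma adjusted p = 0.0675), -0.03 for CCND3 and -0.01 for CCND2. The Paraquat arrays of CCND1 (11.71 to 12.04) lay just above its ctrl arrays (11.41 to 11.70), as Paraquat arrays did in 7.01% of all rows. The groups overlapped for CDK6, CCND2 and CCND3. CDK4, CDK7, MNAT1 and PCNA had no row with only their symbol.

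Of 9 measured genes for the MAP kinases linked to GADD45 and for GADD45GIP1, which binds GADD45 proteins, 1 rose and 1 fell. MAP2K3, an activator of p38, rose by 1.67, and MAP2K6, another activator of p38, fell by 3.08 (adjusted p = 6.28e-06 and 5.98e-07). The other 7 did not pass, among them MAP3K4, the kinase that GADD45 proteins bind (-0.12, adjusted p = 0.549). The median was -0.12. MAP2K4, MAP2K7, MAPK12 and MAPK14 were not measured by a row of their own.

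Most transcription factors known to activate CIP/KIP or GADD45 genes rose. Of 21 measured, 13 rose and 2 fell, with a median of 0.85. The change was 4.12 for EGR1 and 3.64 for FOS, both early response factors, and 3.46 for DDIT3, a stress factor of the CEBP family. BRCA1 and SP1, which binds GC boxes, fell by 0.81 and 0.55. SMAD3, the transforming growth factor beta effector that acts on CDKN2B, rose by 1.08, while SMAD2 and SMAD4 of the same list did not pass.

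Of 12 measured genes listed for repression of the inhibitor genes (the repressor list), 1 rose and 2 fell, with a median of -0.21. Together these are near the share of all rows that passed (20.0%). ZBTB17, listed as the partner through which MYC represses CDKN1A and CDKN2B, rose by 0.34. Its repression depends on MYC, so its rise is not by itself the rise of a repressor. MYC itself fell by 0.47, and TBX3, a repressor of the CDKN2A locus, fell by 0.90. The Polycomb genes BMI1 and EZH2, which keep that locus silent, did not pass, at -0.18 and -0.29.

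Of 12 genes for ubiquitin ligase subunits and other factors in the breakdown of CIP/KIP proteins, 0 rose and 4 fell, with a median of -0.18. CDC20 fell by 1.40, SKP2, which recognises p27 and p21, by 0.92, and DTL, which brings p21 to the CUL4 ligase, by 0.88. DDB1, of the same ligase, fell by 0.36, a call that ended after quantile normalization (-0.29, limma adjusted p = 0.0665). Of 16 genes of the RB, E2F and DREAM proteins, 0 rose and 5 fell, with a median of -0.38. E2F8 fell by 1.71, E2F2 by 1.07 and FOXM1, an activator of mitotic genes, by 1.02. RBL1, a relative of RB1, and E2F1 also fell (-0.80 and -0.45), while RB1 had a change of 0.04 (adjusted p = 0.919).

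**Figure D4:**
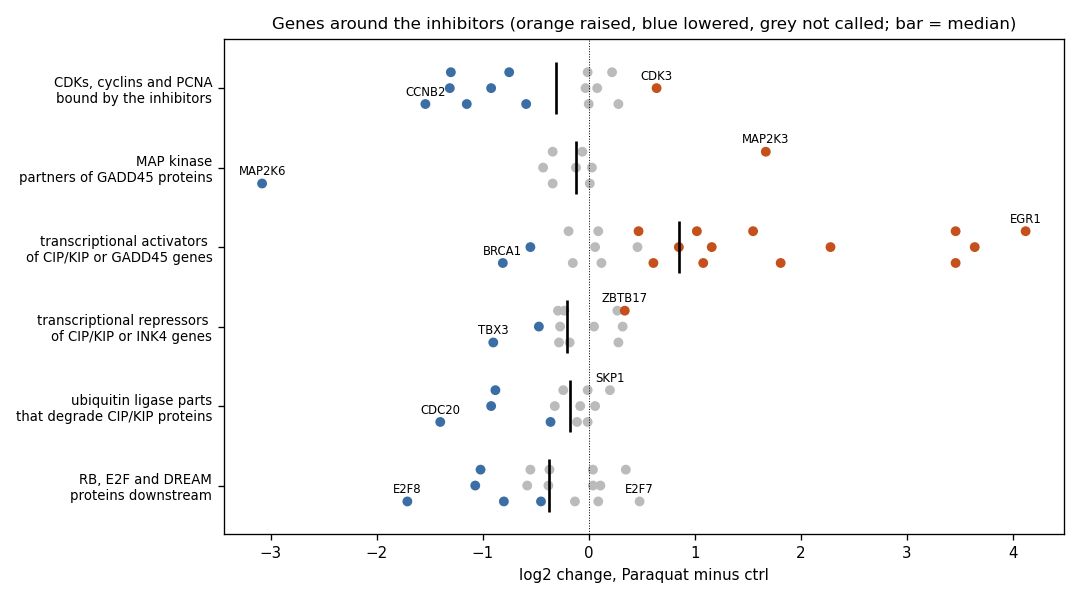
Log2 change (horizontal axis, Paraquat minus ctrl) of each measured gene of 6 lists, one list a row, with the genes at the ends named and a bar at each median. Orange genes rose, blue genes fell and grey genes did not pass. Of the activators (median 0.85) most lie to the right of zero and the kinases and cyclins (median -0.31) mostly to the left.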

How the data were processed

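Total RNA of SH-SY5Y cells was depleted of ribosomal RNA, labelled and hybridised to Affymetrix GeneChip Exon arrays, per the labels' protocols. The deposited table holds log2 values that the authors made with RMA, per the submitters' processing notes; the log2 scale was inferred from their range (1.07 to 14.37). RMA removes background, equalises array distributions and summarises probes, which compresses changes of dim rows. The sources used here name no software version, filter or genome build. Of 22011 rows, 14432 had 1 symbol, 2408 had several and 5171 had none in the platform annotation.

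Paraquat was compared with ctrl in limma 3.58.1 under R 4.3.3 (two-sided, empirical Bayes moderation, Benjamini-Hochberg over all rows, no filter), with 8 residual and 3.06 prior degrees of freedom. The model was run on simulated independent normal values with set changes, which lack the shared array deviations seen here. That run does not test the calls made on these data. The number of arrays limits the precision, and the median standard error was 0.13. With several rows the one with the highest mean would stand for a gene. The genes, lists and tests were chosen with earlier results of these data known. All members were named; each list named up to 3 genes raised and 3 lowered with the largest changes, and further genes given as values were added after their values were seen. One planned gene list and 1 gene of the likeness search are not reported here. Alternatives covered array scaling, dim rows, array weights, variance moderation, thresholds, arrays left out and, added after seeing the data, a block.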

Additional observations from a re-analysis of the deposited data

Results flagged for a closer look

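An array that stood apart from the rest of its group was looked for in 122 groups of 5 arrays (61 genes with values in the text), by the gap to the nearest array as a share of the group's range, and 11 groups had one. Chance gives about 1 such group in 20. Ctrl 11 was apart in 5 of them. GADD45A had a log2 level of 9.19 there, against 8.30 to 8.43 in the other ctrl arrays. CCNB2 had 10.14, against 8.53 to 8.77, CDK1 had 9.53, against 8.09 to 8.49, CCNE2 had 7.64, against 6.72 to 6.92, and MYC had 8.64, against 9.05 to 9.19. Ctrl 7 was apart for MAP2K3, at 6.45 against 6.83 to 6.94, and for F2RL2, at 3.52 against 3.12 to 3.18. Ctrl 19 was apart for BRCA1, at 7.85 against 8.13 to 8.23, and for ZBTB17, at 7.89 against 8.17 to 8.24. Among Paraquat arrays, array 18 was apart for CCND2, at 3.87 against 3.57 to 3.65, and array 14 for CDKN2A-AS1, at 5.26 against 5.96 to 6.20.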

How the results depend on the processing

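The count of 5 members raised and 0 lowered held in every alternative except a block described last: quantile normalization, median centring, dim rows left out, array weights, trended robust moderation, an adjusted p under 0.01, a minimum fold of 1.2, each array left out and ctrl 11 and Paraquat 12 left out. No call of a member ended in any of these. The pair test was run again only after quantile normalization and with arrays left out, and no call of a pair ended there. The smallest adjusted p of a pair in the main run, 0.0119 (exact permutation test), lies above the stricter threshold of 0.01. Changes near 0 took the other sign: CDKN1C was 0.02 after quantile normalization, and CDKN2A was -0.02 with array weights and without ctrl 11 and Paraquat 12, where CDKN2A minus CDKN2D was also -0.02. With 1 array left out CDKN2A ranged from -0.05 to 0.10 and CDKN2A minus CDKN2D from -0.09 to 0.11. Of the kinases and cyclins 2 rose after quantile normalization and after median centring. Of the MAP kinase genes 2 fell after quantile normalization and without dim rows, 3 with array weights, and 1 to 2 with 1 array left out (2 without ctrl 7, ctrl 19, Paraquat 8 or Paraquat 14). With array weights 2 genes of the repressor list rose and 4 fell, and 9 RB and E2F genes fell. With 1 array left out 1 to 2 genes of the repressor list rose (2 without ctrl 11). Of all rows 1068 rose and 1424 fell at an adjusted p under 0.01, and 735 and 913 at a minimum fold of 1.2. After median centring 2241 rose and 2211 fell. Apart from the stricter thresholds, which call fewer rows by construction, the cause was not tested. The mean of several rows was not run because each member had 1 row. The labels state no pairs, but title numbers run in neighbours (ctrl 7 and Paraquat 8 to ctrl 19 and Paraquat 20), so a replicate block of neighbouring numbers was added after seeing the data. Deviations from group means correlated at 0.23, 0.46, 0.09, 0.17 and 0.12 over all rows within the 5 neighbouring pairs. These were all positive and above 0.1 in 4, and 3 of 5 ctrl and 3 of 5 Paraquat arrays correlated best with their neighbour. The main fit has no block because the labels state no pairs, and these values do not settle whether neighbours are pairs. Of all rows 2226 rose and 3153 fell with the block, against 1873 and 2524 in the main fit. With the block 5 members rose and 1 fell: CDKN1B, with the same change of -0.52, passed (limma adjusted p = 0.0409). No other member's call changed. The block gave 2 kinases and cyclins raised, 3 MAP kinase genes lowered, 2 genes of the repressor list raised and 1 RB and E2F gene raised.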

Other observations

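Genes whose names tie them to the inhibitors were added outside the naming rule, after their values were seen. CDKN3, a phosphatase that removes the activating phosphate from cyclin-dependent kinases (transcript cluster 3536336), fell 3.02-fold, from 8.38 ± 0.52 to 6.78 ± 0.25 (limma change -1.60 ± 0.23, adjusted p = 0.000599), lower in 5 of 5 Paraquat arrays than in any ctrl array. It fell where CDKN1A rose. CDKN2AIP, which binds ARF, did not pass, at 0.39 ± 0.14 (adjusted p = 0.0680), and its paralogue CDKN2AIPNL had -0.29 ± 0.25 (adjusted p = 0.507).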
